A study of Mus musculus with 6 samples.

Results

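The Sox genes examined here are Sox1, Sox2, Sox3, Sox4, Sox5, Sox6, Sox8, Sox9, Sox11 and Sox21, the Sox transcription factors of neural and glial progenitors. They were picked by gene symbol from a table of read counts for 22851 genes. All 10 were present and all 10 had enough counts to be tested. Bulk RNA was sequenced from primary radial glial cells of mouse brains taken at P0 to P3, on the C57BL/6J background. Cells were grown in DMEM with 10% FBS and then kept 6 days in DMEM without FBS, which induces the change into multiciliated ependymal cells, the ciliated lining of the brain ventricles. The 2 groups were WT cells and cells of Edf1 KO mice made with CRISPR/Cas9, with 3 biological replicates each, and both groups received the same culture and induction. The edited part of Edf1, and how many animals went into a culture, are not given in the sources used here.

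Sox proteins bind DNA through an HMG box related to that of the testis-determining factor Sry, and closely related members form subgroups that can stand in for each other. In the developing brain, the SoxB1 factors Sox1, Sox2 and Sox3 keep cells in the progenitor state, the SoxB2 factor Sox21 counteracts them, and SoxC factors act as neurons form. SoxE factors, with Sox9 foremost, drive the formation of glia, and the SoxD factors Sox5 and Sox6 modulate them. Radial glia and the ependymal cells they give rise to both express Sox2 and Sox9.

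Between the genotypes, 3 of the 10 genes were called by edgeR's quasi-likelihood test, where a call is a p-value under 0.05 after Benjamini-Hochberg adjustment over all 14243 tested genes. Sox4 and Sox5 were higher in Edf1 KO cells and Sox3 was lower. Sox2 and Sox9, the 2 most abundant of the 10 per transcript length, had nearly equal mean levels in the genotypes. Over all tested genes, 26.9% were called, 12.7% as higher and 14.2% as lower in the knockout, so 3 calls among 10 genes is close to the share of the whole table. The median log2 fold change of the 10 genes was 0.045, or 0.0050 to 0.064 with 1 library left out, and the median over all tested genes was 0.0029. The median absolute log2 fold change was 0.079 for the 10 genes and 0.15 over all tested genes. The groups did not overlap for 3 of the 10 genes and for 43.3% of all tested genes. In bulk RNA, fewer cells of a type and less RNA per cell cannot be told apart, and this holds for every value below.

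The libraries held 13071766 to 28087006 counts, with the lowest total in WT replicate 2, which also stood apart from the other WT libraries on the second principal component of the log2 levels. On the first component, which separated the genotypes, WT replicate 2 was at -32.5 and the other WT libraries at -18.1. It thus lay farthest from the knockout libraries, at 20.6 to 24.3. Edf1 itself had 11.3 ± 1.72 CPM in the knockout and 82.9 ± 2.85 CPM in WT (SD, n = 3 each), where CPM are counts per 1e6 counts of the library after scaling with the TMM composition factor of edgeR. All 10 markers fixed for multiciliated ependymal cells were present and were called lower in the knockout, with a summed level of 2164 to 2419 CPM in WT and 1226 to 1300 CPM in Edf1 KO. Markers of other cells also differed: 7 of 8 microglia markers were called lower (summed 1689 to 1834 CPM in WT, 1113 to 1135 in KO). All 7 tested fibroblast and mural markers of 8 were called higher (summed 563.9 to 605.2 CPM in WT, 725.9 to 812.1 in KO). Acta2 made up most of these sums, with 475 ± 19.0 CPM in WT and 586 ± 21.9 in KO. Its fold of 1.235 was the smallest of the 7, and that of Dcn, 2.38, the largest. The pericyte marker Rgs5, with 2 to 11 counts in a library, was not tested. Of 4 endothelial markers only Kdr could be tested and it was called higher, while Pecam1 had at most 5 counts and Cldn5 at most 1 in any library. Cdh5, too low to be tested, had 2, 4 and 5 counts in WT and 8, 26 and 13 in KO, with each KO library above each WT library in CPM. Summed neuron markers were at 4.97 to 6.22 CPM in WT and 4.98 to 6.13 in KO, oligodendrocyte markers at 6.06 to 9.84 and 7.19 to 8.73, and choroid plexus markers at 80.05 to 108.2 and 86.9 to 108.0. The part of these cell types in the results on Sox genes was not tested.

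The plot of CPM by library gives every value of the 10 genes.

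**Figure D1:**
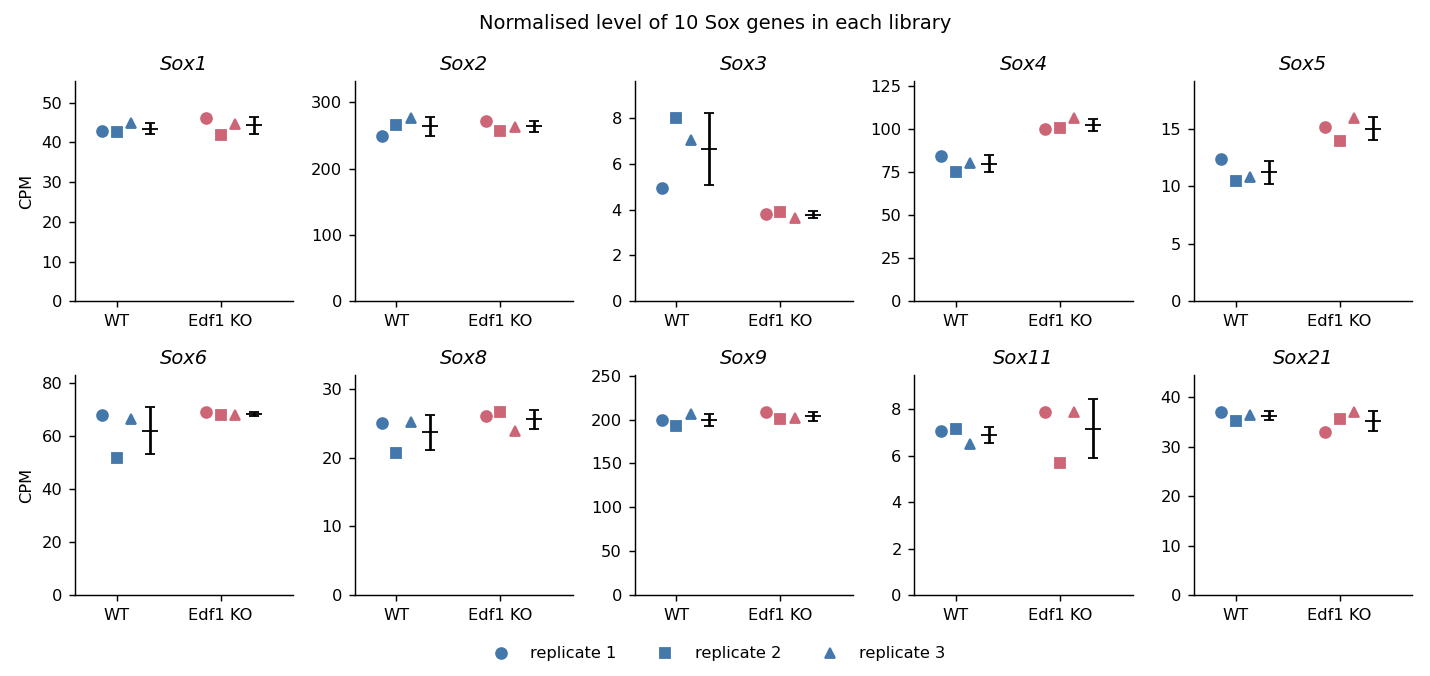
Normalised level (CPM, linear axis from 0) of each of the 10 Sox genes in the WT (blue) and Edf1 KO (red) libraries; marker shapes give the replicate number, and black bars the mean ± SD of 3 libraries. The Sox4 and Sox5 points of the knockout all lie above those of WT, the Sox3 points all lie below, and the groups overlap for the other 7 genes.

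The SoxB1 genes come first. Sox3 is an X-linked gene of 1 exon (chrX:60891366-60893430, minus strand, GRCm38) that is needed for the formation of the hypothalamus and pituitary. It had 4.94, 8.0 and 7.03 CPM in WT replicates 1, 2 and 3, and 3.81, 3.90 and 3.61 CPM in Edf1 KO replicates 1, 2 and 3. The 3 knockout libraries lay close together and below every WT library, and WT replicate 1 was the WT library nearest to them. The raw counts behind these levels were 131, 103 and 130 in WT and 62, 70 and 102 in KO. Sox3 fell by 0.79 on the log2 scale (SE 0.19, 95% interval -1.20 to -0.38, edgeR adjusted p-value 0.00797), to a fold of 0.579. The size rested partly on single WT libraries: the log2 fold change was -0.99 without WT replicate 1 and -0.65 without WT replicate 2, and the adjusted p-value from edgeR, DESeq2 or limma stayed between 0.00124 and 0.0421 over 16 alternatives.

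Sox2 (chr3:34650405-34652461, plus strand, 1 exon), a factor of stem cell pluripotency as well as of neural progenitors, had 248.7, 265 and 276 CPM in WT and 272, 256 and 262 CPM in KO. The knockout libraries fell within the WT range. The log2 fold change was 0.0016 (SE 0.052, edgeR adjusted p-value 0.986), and its 95% interval of -0.11 to 0.11 bounds a difference in either direction. Sox1 (chr8:12395295-12400126, plus strand, 1 exon), the SoxB1 gene most restricted to the neural lineage, had 42.8, 42.7 and 44.98 CPM in WT and 46.2, 42.0 and 44.8 CPM in KO. Its levels overlapped, with a log2 fold change of 0.028 (95% interval -0.11 to 0.17, edgeR adjusted p-value 0.786). The SoxB2 gene Sox21 (chr14:118233232-118237030, minus strand, 1 exon) had 37.1, 35.3 and 36.5 CPM in WT and 33.1, 35.7 and 37.03 CPM in KO. Here too the groups overlapped, with a log2 fold change of -0.041 (95% interval -0.19 to 0.11, edgeR adjusted p-value 0.710).

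Because a ratio of counts within a library does not depend on how libraries are scaled, Sox3 was also set against its relatives. Per transcript length, the Sox3 level was 1.98%, 3.01% and 2.53% of the Sox2 level in WT replicates 1, 2 and 3. In the knockout it was 1.40%, 1.51% and 1.37%, below every WT value. Against Sox1, the Sox3 level was 35.8% ± 8.48 in WT and 19.97% ± 1.54 in KO (SD, n = 3 each). The level of Sox1 against Sox2 was 7.03% ± 0.26 in WT and 7.16% ± 0.16 in KO, and these values overlapped. In 2-sided exact permutation tests of the log2 ratios over 7 such pairs, both Sox3 ratios reached p = 0.1, the smallest value that 3 against 3 libraries allow, or 0.175 after Benjamini-Hochberg adjustment, and Sox1 against Sox2 gave p = 0.6.

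The SoxC gene Sox4 (chr13:28948919-28953713, minus strand, 1 exon), which acts with Sox11 in newly forming neurons and is also expressed in many other cell types, had 84.5, 75.0 and 80.4 CPM in WT. In the knockout it had 100.2, 100.4 and 106.6 CPM, so each knockout library exceeded each WT library. The fold was 1.28, or 0.35 on the log2 scale (SE 0.060, 95% interval 0.22 to 0.49, edgeR adjusted p-value 0.000899). Sox4 kept its call in all 16 alternatives, with log2 fold changes of 0.31 to 0.40. One limit concerns strand: the annotated gene Gm26735 on the opposite strand covers 54.6% of the Sox4 exon bases, and the counting is not stated to use strand, so reads of both cannot be told apart if it did not. Genes on the opposite strand likewise cover 18.8% of the exon bases of Sox21, 10.6% of those of Sox8 and 9.25% of those of Sox5.

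Sox11 (chr12:27334264-27342574, minus strand, 1 exon), the close relative of Sox4, had 7.04, 7.15 and 6.49 CPM in WT and 7.87, 5.68 and 7.90 CPM in KO. Knockout replicate 2 lay below all other libraries and the remaining knockout libraries above all WT libraries. The log2 fold change was 0.061 (SE 0.15, edgeR adjusted p-value 0.799), and its 95% interval of -0.26 to 0.38 includes the value of Sox4. The ratio of Sox4 to Sox11 did not overlap between the groups and was higher in each knockout library. Its 2-sided exact permutation p of 0.1 (0.175 after adjustment over 7 pairs) is the smallest that 3 against 3 libraries allow, so this test could not pass a threshold of 0.05.

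The SoxC gene outside the 10, Sox12, had 9.53, 8.78 and 9.19 CPM in WT and 11.1, 11.6 and 11.2 CPM in KO. Its groups did not overlap, and its log2 fold change was 0.30 (SE 0.10, edgeR adjusted p-value 0.0449). This call sits at the threshold: it was lost in 12 of 16 alternatives, among them each of the 6 fits that left out 1 library, with adjusted p-values from edgeR, DESeq2 or limma of 0.0391 to 0.155 over all of them.

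Of the SoxD genes, Sox5 (chr6:143828425-144781977, minus strand, 14 annotated transcripts) takes part in cartilage formation and in the fate of deep-layer cortical neurons. It had 12.4, 10.5 and 10.8 CPM in WT and 15.2, 13.9 and 15.97 CPM in KO, with no overlap. The fold was 1.33, or 0.41 on the log2 scale (SE 0.10, 95% interval 0.19 to 0.63, edgeR adjusted p-value 0.00974). The call depended on knockout replicate 3, without which it had a log2 fold change of 0.37 and an edgeR adjusted p-value 0.0569. Over the 16 alternatives the adjusted p-values of Sox5 by edgeR, DESeq2 or limma ran from 0.00591 to 0.0569. The table counts whole genes, so it does not show which of the Sox5 transcripts differed.

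Its partner Sox6 (chr7:115470872-116038796, minus strand, 16 annotated transcripts) had 67.7, 51.7 and 66.4 CPM in WT and 69.1, 67.97 and 67.7 CPM in KO. The low value of WT replicate 2 set the WT mean apart, while WT replicates 1 and 3 were near the knockout libraries. The log2 fold change was 0.13 (SE 0.085, 95% interval -0.055 to 0.32, edgeR adjusted p-value 0.291), and it was 0.024 without WT replicate 2. With all libraries and offsets for GC content and transcript length, the log2 fold change of Sox6 was 0.022. The level of Sox5 against Sox6 per transcript length was 21.9%, 24.3% and 19.5% in WT and 26.3%, 24.5% and 28.2% in KO. These ratios did not overlap (exact permutation p = 0.1, 2-sided; 0.175 after adjustment over 7 pairs), but knockout replicate 2 and WT replicate 2 were nearly equal. Sox13, the SoxD gene outside the 10, had 13.1 ± 1.19 CPM in WT and 12.8 ± 1.29 CPM in KO (SD, n = 3 each), with a log2 fold change of -0.031 (edgeR adjusted p-value 0.865), which turned to 0.036 without WT replicate 3, 0.014 without KO replicate 1 and 0.0082 without KO replicate 2.

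Promoter sequence is shown for Sox4 and Sox5, the genes that were higher together, and for Sox11, the relative of Sox4 that was not called. Each line holds the 250 bases before the RefSeq start site of GRCm38.p6, written 5′ to 3′ on the strand of the gene. Capitals mark matches, on either strand, to ACAAT (the core bound by Sox proteins), CCAAT (the CCAAT box), GGGCGG (the GC box), TATAAA (the TATA box) or ATGCAAAT (the octamer bound by POU factors); ACAAT and CCAAT end in the same letters, but no match can be both.
Sox4, chr13:28953700-28953949, minus strand: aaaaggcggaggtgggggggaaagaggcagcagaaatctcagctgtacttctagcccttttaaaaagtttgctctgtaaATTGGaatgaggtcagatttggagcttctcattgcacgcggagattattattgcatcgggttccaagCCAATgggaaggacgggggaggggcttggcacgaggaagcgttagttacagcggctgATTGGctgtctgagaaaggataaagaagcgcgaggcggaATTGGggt
Sox5, chr6:143947107-143947356, minus strand: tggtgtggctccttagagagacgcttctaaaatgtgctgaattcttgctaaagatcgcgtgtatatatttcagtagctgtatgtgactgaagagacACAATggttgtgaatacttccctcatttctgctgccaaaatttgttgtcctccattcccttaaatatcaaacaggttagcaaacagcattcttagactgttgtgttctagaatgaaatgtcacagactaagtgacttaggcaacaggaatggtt
Sox11, chr12:27342719-27342968, minus strand: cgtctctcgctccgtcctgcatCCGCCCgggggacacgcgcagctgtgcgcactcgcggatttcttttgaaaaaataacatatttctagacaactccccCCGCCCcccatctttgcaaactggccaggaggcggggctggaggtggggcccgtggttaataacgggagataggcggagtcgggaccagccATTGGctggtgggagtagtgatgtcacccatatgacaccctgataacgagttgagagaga

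The windows of the genes that were both higher look unlike. The Sox4 window had a GC content of 50.8%, 11 CpG dinucleotides and 4 CCAAT matches. The Sox5 window had a GC content of 39.6%, 3 CpG dinucleotides and 1 ACAAT match, and its start site lies 834871 bases inside the gene as GENCODE M21 annotates it, with 0 of its 250 bases in an annotated Sox5 exon. The Sox11 window had 58% GC, 17 CpG dinucleotides, 1 CCAAT match and 2 GC boxes. Over all 32851 RefSeq windows of this length the median was 52.4% GC and 6 CpG dinucleotides, and ACAAT occurred in 27.7%, CCAAT in 33.8%, GGGCGG in 32.7%, TATAAA in 12.4% and ATGCAAAT in 1.6%. RefSeq windows were matched for 8 of the 10 genes, 13 windows in all because Sox6 has 6 start sites. Of these 13, 4 held ACAAT, 6 CCAAT, 5 GGGCGG, 1 TATAAA and 0 ATGCAAAT. All 4 with ACAAT belonged to Sox5 and Sox6, which hold most of the 13 windows. The start sites of those in Sox6 lie 237187, 214086 and 43710 bases inside the annotated gene. These windows have 0 bases in an annotated Sox6 exon and a GC content of 34% to 41.6%. These matches describe letters in a window and not bound sites. Sox3 and Sox9 had no entry.

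The SoxE gene Sox9 (chr11:112782224-112787760, plus strand, 3 exons), the factor that turns progenitors toward glia, is the second most abundant of the 10 per transcript length. It had 199.9, 193 and 207 CPM in WT and 209, 200.5 and 201 CPM in KO. The ranges overlapped, and the log2 fold change was 0.027 (SE 0.048, 95% interval -0.078 to 0.13, edgeR adjusted p-value 0.724). Sox8 (chr17:25565892-25570686, minus strand), a relative of Sox9 with a weaker role in glia, had 25.1, 20.7 and 25.3 CPM in WT and 26.1, 26.7 and 23.97 CPM in KO. As for Sox6, WT replicate 2 was the lowest of the 6 libraries. The log2 fold change of Sox8 was 0.096 (95% interval -0.10 to 0.29, edgeR adjusted p-value 0.475), and it was 0.017 without WT replicate 2.

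The SoxE gene of oligodendrocytes and neural crest, Sox10, lies outside the 10 and had only 5 to 20 counts in a library, too few to be tested. Of the other Sox genes in the table, Sox7, a gene of the SoxF subgroup of endothelial cells, had 0.596 ± 0.11 CPM in WT and 1.03 ± 0.39 CPM in KO (SD, n = 3 each). Its log2 fold change of 0.80 (SE 0.37, edgeR adjusted p-value 0.132) did not pass. Sox18 had 2 to 12 counts, Sox30 had 0 to 11 and Sox15 had 0 to 5 in a library. Sox14 and Sox17 had 0 counts in every library, which allows up to 3 counts, or 0.106 to 0.233 CPM by library, from counting error alone.

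**Figure D2:**
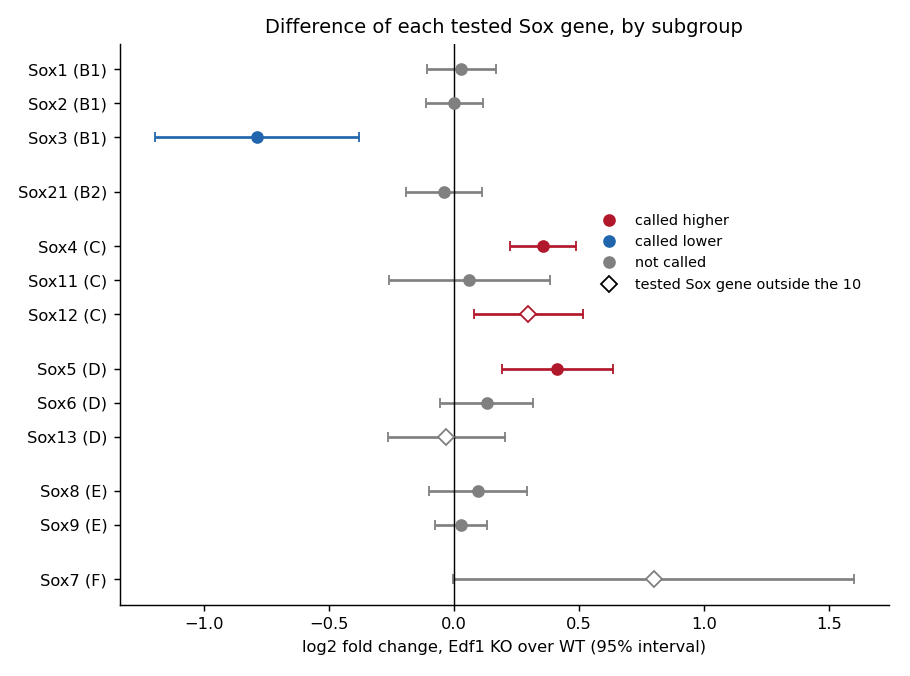
Log2 fold change of Edf1 KO over WT (x axis) with its 95% interval for the 13 tested Sox genes, grouped by subgroup letter; filled circles are the 10 genes and open diamonds are Sox7, Sox12 and Sox13. The intervals of Sox3, Sox4, Sox5 and Sox12 leave out 0, and those of Sox2 and Sox9 are the narrowest.

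The spread between replicates differed among the genes. In WT the SD was 23.5% of the mean for Sox3 and 14.3% for Sox6, and 2.61% for Sox21. In the knockout it was 17.8% for Sox11 and 1.12% for Sox6. Among the 10 genes, the 3 that were called kept their direction in each of 16 alternative fits. The log2 fold change of Sox1, Sox2, Sox11 and Sox21 crossed 0 in at least 1 of them, as the plot of alternatives shows, so no direction is given for these 4.

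**Figure D3:**
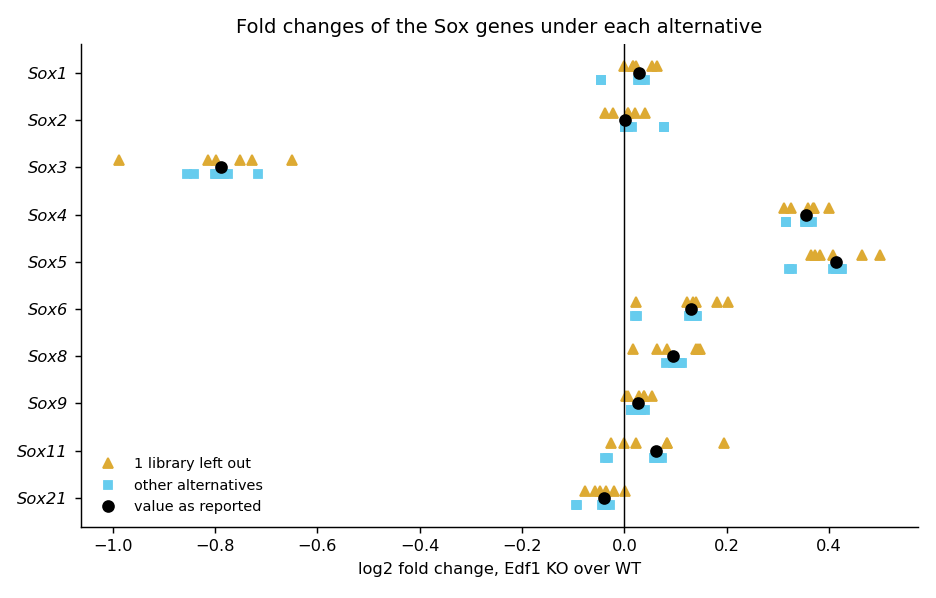
Log2 fold change of Edf1 KO over WT (x axis) of the 10 Sox genes as reported (black), in the 6 fits that leave out 1 library (triangles) and in the other alternatives (squares). Sox3 stays between -0.99 and -0.65, Sox4 between 0.31 and 0.40 and Sox5 between 0.32 and 0.50.

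Levels were compared between the genes per kilobase of the longest GENCODE M21 transcript, since long transcripts collect more reads. On this scale Sox2 led with 128 ± 6.78 CPM per kb in WT and 128 ± 3.87 in KO, followed by Sox9 with 48.3 ± 1.66 and 49.3 ± 1.15 (SD, n = 3 each). Sox4 came next in both genotypes, with 16.7 ± 0.99 in WT and 21.4 ± 0.76 in KO. Each of these 3 genes stood above the next in every library of a genotype. Sox21, Sox1, Sox8 and Sox6 followed in that order in both genotypes, at mean levels of 9.56 to 7.15 CPM per kb in WT and 9.29 to 7.87 in KO. Among them, Sox21 and Sox1 overlapped in both genotypes, Sox8 and Sox6 overlapped in WT, and Sox1 and Sox8 overlapped in KO.

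The lower end of the order differed. Sox3 stood above Sox5 in WT, at 3.22 ± 0.76 against 1.55 ± 0.14 CPM per kb, with no overlap. In the knockout Sox5 stood above Sox3, at 2.08 ± 0.14 against 1.83 ± 0.072, also with no overlap. This exchange depends on the length used, because the annotated exons of Sox5 together hold 14376 bases against 7243 in its longest transcript. Per kb of all annotated exon bases, a length tried after the values were seen, Sox5 was at 0.780 ± 0.069 in WT and 1.05 ± 0.072 in KO, below Sox3 in both. Sox11 had 0.829 ± 0.043 in WT and 0.860 ± 0.15 in KO on either length, the lowest level per longest transcript, and overlapped Sox5 in WT per annotated exon bases. Of the summed level of the 10 genes, Sox2 made up 55.1% ± 1.59 in WT and 53.8% ± 0.49 in KO, and Sox9 made up 20.8% ± 0.47 and 20.7% ± 0.18. The share of Sox4 was 7.19% ± 0.51 in WT and 8.96% ± 0.38 in KO, and that of Sox3 was 1.39% ± 0.32 and 0.767% ± 0.038. The summed level itself was 226.6 to 241.8 CPM per kb in WT and 233.4 to 243.6 in KO, with overlapping ranges.

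**Figure D4:**
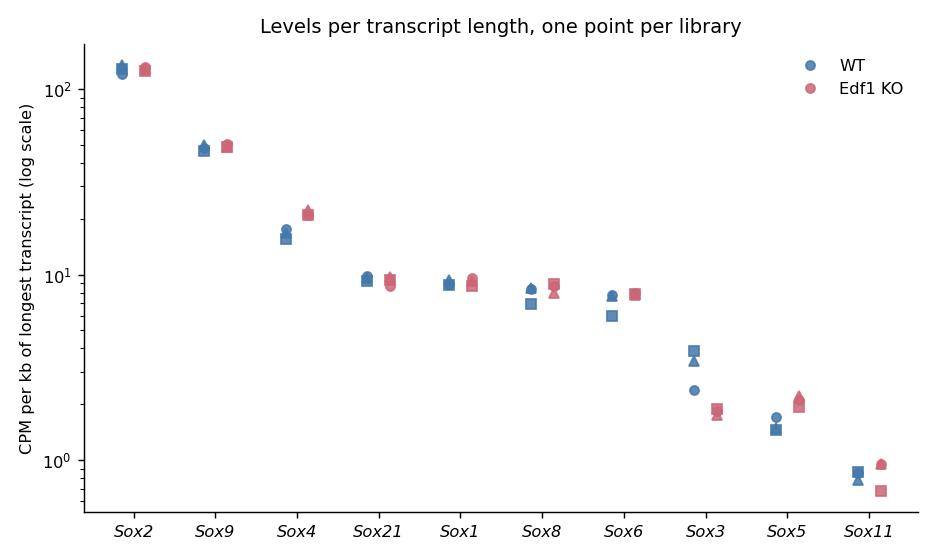
CPM per kb of the longest transcript (log axis) of the 10 Sox genes in order of their WT mean, one point per library, WT in blue and Edf1 KO in red, with the marker shape for the replicate number. Sox2, Sox9 and Sox4 lead in both genotypes, and Sox3 and Sox5 exchange places between WT and knockout on this length, but not per kb of all annotated exon bases.

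Genes that work with Sox factors or are known to respond to them were then described by counts of calls and by medians. Their lists were written from general knowledge, but with earlier results of these data known. The shares called are therefore not those of an independent choice. POU factors bind DNA together with SoxB1 factors at enhancers of neural progenitor genes. Of 5 POU genes 4 were tested, and 0 were called by edgeR's quasi-likelihood test, 0 by DESeq2 and 0 by limma voom. Only 1 of the 4, Pou2f1, had an unadjusted edgeR p-value under 0.05, as had 5455 of all 14243 tested genes. The log2 fold changes of the 4 POU genes ran from -0.00085 for Pou3f2 to 0.43 for Pou2f1. Of 15 neural stem and radial glia genes linked to SoxB1 factors, all were tested, 5 were called higher and 2 lower (46.7% called, against 26.9% of all tested genes), with a median log2 fold change of 0.15. This median was 0.096 with offsets for GC content and transcript length, 0.090 with the replicate block added to them and 0.19 without WT replicate 3. The number called higher was 3 without KO replicate 1 or KO replicate 2 and 8 without WT replicate 2; it was 9 with library size alone or with no filter. Nes, which encodes the intermediate filament nestin and has a classic SoxB1 and POU enhancer, rose the most, from 721 ± 52.5 to 951 ± 11.1 CPM (log2 fold change 0.40, SE 0.054, edgeR adjusted p-value 0.000145). With the GC and length offsets the log2 fold change of Nes was 0.30. Lhx2, a homeobox gene of the early forebrain, fell the most, from 101.8 ± 0.61 to 83.5 ± 2.96 CPM (log2 fold change -0.28, SE 0.054, edgeR adjusted p-value 0.00179).

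Of 14 astroglial genes linked to Sox9 and Nfia, 2 were called higher and 4 lower (42.9% called), with a median of 0.035 that turned to -0.012 without WT replicate 2. The median was also below 0 with the GC and length offsets, at -0.018, and at -0.0115 with the replicate block added to them. Without WT replicate 2 and in both offset fits, 6 genes were called lower. Apcdd1, an inhibitor of Wnt signalling that Sox9 and Nfia are known to induce together, rose from 2.30 ± 0.13 to 6.17 ± 0.60 CPM (log2 fold change 1.40, SE 0.17). S100b, a calcium-binding protein of astrocytes and ependymal cells, fell from 9.74 ± 0.41 to 6.25 ± 0.38 CPM (log2 fold change -0.65, SE 0.12). Their adjusted p-values were 5.7e-05 and 0.0014 in edgeR's quasi-likelihood test (SD, n = 3 each). Calls in this list thus went in both directions, and whether these genes follow the level of Sox9 was not tested.

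Of 11 neuroblast genes linked to SoxC factors, 10 were tested, 1 was called higher and 2 lower (30% called, near the 26.9% of all tested genes), with a median log2 fold change of -0.029. The median was 0.0032 without KO replicate 3, and 2 genes were called higher without that library or without WT replicate 3. The number called higher was also 2 with DESeq2, no filter, a mean of at least 50 counts and both fits with GC and length offsets. In those offset fits the median was 0.020 and 0.023, and 3 genes were called lower, as without WT replicate 2. Tead2, a transcription factor of the Hippo pathway known as a target of Sox4 and Sox11, rose from 22.3 ± 2.0 to 29.02 ± 1.43 CPM (log2 fold change 0.39, SE 0.084, edgeR adjusted p-value 0.00419). Dcx, a microtubule protein of migrating neuroblasts, fell from 0.798 ± 0.059 to 0.257 ± 0.018 CPM (log2 fold change -1.61, SE 0.39, edgeR adjusted p-value 0.00896), at a level of few counts. It had 20, 10 and 16 counts in WT and 4, 5 and 7 in KO. Dcx thus passed the count filter only through WT, where it was higher, and its call is not independent of that filter. With a mean of at least 50 counts required, Dcx was not tested and 1 gene of the list was called lower. Genes of this list were called in both directions, and whether they follow the level of Sox4 was not tested.

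Of 12 oligodendrocyte lineage genes, 9 were tested, 2 were called higher and 1 lower (33.3% called), with a median of 0.099. The median was 0.011 without WT replicate 2, 0.056 without KO replicate 1 and -0.019 without KO replicate 2, and 1 gene was called higher without WT replicate 3, KO replicate 1 or KO replicate 3. The number called higher was also 1 in both fits with GC and length offsets. Nkx2-2, a homeobox gene of oligodendrocyte precursors, rose from 6.58 ± 0.13 to 9.83 ± 0.31 CPM (log2 fold change 0.58, SE 0.11, edgeR adjusted p-value 0.00208). Cnp, an enzyme of myelin, fell from 350.3 ± 20.7 to 295 ± 3.58 CPM (log2 fold change -0.25, SE 0.051, edgeR adjusted p-value 0.00321). Of 12 cartilage genes that Sox5, Sox6 and Sox9 are known to activate together, 9 were tested, 2 were called higher and 1 lower (33.3% called), with a median of -0.11. This median had no stable direction: it was 0.31 without KO replicate 3, 0.063 with no filter and -0.25 without KO replicate 2. Only 1 gene was called higher, and 0 lower, without WT replicate 1 or without KO replicate 2, and 2 were called lower without WT replicate 3. The number called lower was also 2 with no filter, with the replicate block and in both fits with GC and length offsets. Col9a2, a chain of type IX collagen, rose from 14.8 ± 1.44 to 20.3 ± 0.86 CPM (log2 fold change 0.45, SE 0.091, edgeR adjusted p-value 0.00273). The matrix protein gene Matn3 fell from 5.45 ± 0.13 to 3.65 ± 0.36 CPM (log2 fold change -0.57, SE 0.15, edgeR adjusted p-value 0.0147); its call was lost without WT replicate 1 (-0.56, adjusted p-value 0.0512) and without KO replicate 2 (-0.50, adjusted p-value 0.0617).

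**Figure D5:**
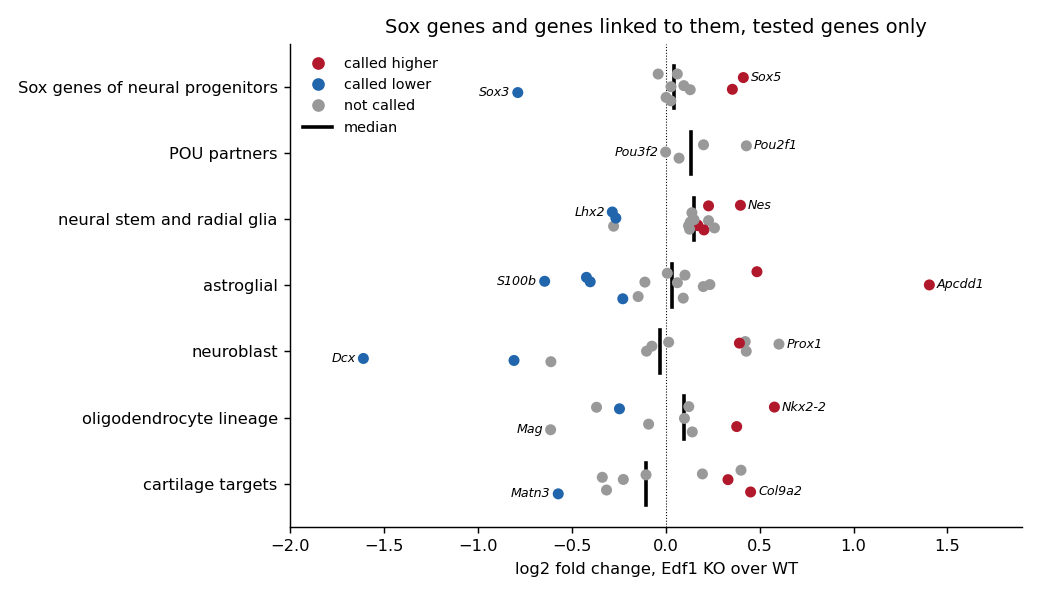
Log2 fold change of Edf1 KO over WT (x axis) of every tested gene in the Sox list and in 6 lists of linked genes; points are genes (red called higher, blue called lower, grey not called), spread vertically for legibility, black bars are medians, and the outermost genes are named. The medians lie between -0.11 and 0.15.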

How the data were processed

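RNA was sequenced in 6 libraries, 3 WT and 3 Edf1 KO, after 6 days of induction. Read counts, whole numbers per gene symbol, stand in the deposited table, 1 column per library, with 0 unused columns and 0 rows without a gene name. The submitters' processing notes name FastQC 0.11.2, cutadapt 1.11, HISAT2 2.1.0 and build GRCm38. The counting program, annotation, use of strand and treatment of reads that map to several places are not given in the sources used here.

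In R 4.3.3, filterByExpr of edgeR 4.0.16 kept 14243 genes, TMM factors were applied, and KO was tested against WT by the quasi-likelihood test with no covariate and Benjamini-Hochberg adjustment over all tested genes (threshold 0.05). SE is the log2 fold change divided by the root of F. Intervals are 95% and use the residual plus prior degrees of freedom. Total counts of 13071766 to 28087006 limit the precision of low genes such as Sox3 and Sox11. In counts simulated for this comparison with 200 of 14157 genes changed 2-fold, the fit recovered 92.5% of them, and 5.13% of its calls were false. These rates do not cover smaller changes, such as the folds of 1.28 for Sox4 and 1.33 for Sox5. Nor do they cover a table in which 26.9% of genes are called.

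The Sox genes and the lists were chosen with earlier results of these data known. Lists received no set test. Named are the 10 genes, Edf1, all tested Sox genes and, in each list, the called gene with the largest rise and the largest fall; other marker genes, Pou2f1 and Pou3f2 were named after their values were seen. Alternatives were DESeq2 size factors, library size alone, no filter, a mean of at least 50 counts, DESeq2 1.42.0, limma 3.58.1 voom, the replicate number as a block, offsets for GC content and transcript length (alone and with the block), each library left out, and a threshold of 0.01. Lengths, positions and exon overlaps come from GENCODE M21 (GRCm38), by symbol, and promoter sequences from RefSeq (GRCm38.p6).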

Additional observations from a re-analysis of the deposited data

How the results depend on the processing

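Edf1, Sox3 and Sox4 kept their call and direction in all 16 alternatives. Sox5 lost its call in 1, without KO replicate 3, so that 1 to 2 of the 10 genes were called higher across the fits that left out 1 library; its log2 fold change ran from 0.37 to 0.50 in them. No other of the 10 genes passed the threshold in any alternative. Among these, Sox1 was at 0.028 as reported and at -0.046 with the GC and length offsets, alone or with the replicate block (-0.046), and Sox11 at -0.039 and -0.033. In the fits that left out 1 library, Sox8 ran from 0.017 to 0.15, Sox9 from 0.0027 to 0.054, Sox6 from 0.024 to 0.20, Sox1 from -0.0016 to 0.064, Sox2 from -0.037 to 0.041, Sox11 from -0.026 to 0.19, Sox21 from -0.077 to 0.0020 and Sox13 from -0.12 to 0.036. The cause was not tested. Over all genes, 3833 were called, 2213 of them at the stricter threshold of 0.01, and 2658 to 4340 without 1 library.

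The replicate number as a block gave 4065 called genes, 3683 of them shared with the fit as reported, and no change of call among the 10 genes; Sox12 lost its call (0.30, edgeR adjusted p-value 0.0615). The deviations of same-numbered WT and KO libraries from their groups correlated at 0.0693, 0.0604 and 0.0372. Each library correlated best with its own number, a hint from the data and not from the design, and no pairing was assumed. Depth limits Sox3, with 62 to 131 counts in a library, and Sox11, with 92 to 223.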
